A study of Homo sapiens with 4 samples.

Results

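The hemato-endothelial transcription factors described here were TAL1, LYL1, LMO2, ETV2, FLI1, ERG, SPI1, RUNX1, GFI1B and MYB, chosen by gene symbol. All 10 were found among the 17894 genes measured. RNA-SEQ was performed on H1 human embryonic stem cells (hESCs) at day 2 of hematopoietic differentiation on mAGM-S3, a mouse stromal line, after the human cells had been sorted away from the stroma with an antibody to a human cell surface antigen. The 4 libraries were 1 control of wild type genotype, 1 of wild type cells exposed to 20 ng/mL R-spondin2 during the initial 1 day of differentiation, and 2 of genotype LGR4-/-, with no R-spondin2 named for them. LGR4 encodes a receptor for R-spondins, secreted proteins that strengthen WNT signaling. The LGR4-/- samples carry the numbers 1 and 2 and are called clone 1 and clone 2 below. The labels do not say how the gene was disrupted or whether these are separate clonal lines. Each library stood alone for its sample, so the spread between cultures of 1 condition was not measured and no comparison carries a p-value.

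These factors form the core of the program by which mesoderm gives rise to endothelium and blood. ETV2 acts early, at the step from mesoderm to hemangiogenic progenitors. TAL1 or LYL1 binds DNA with E proteins in a complex held together by LMO2 and LDB1. FLI1 and ERG are ETS factors of endothelium and of blood progenitors, and SPI1 (PU.1) is the ETS factor of myeloid cells. RUNX1 is required for the endothelial-to-hematopoietic transition, GFI1B represses endothelial genes during that transition, and MYB maintains definitive blood progenitors. Most of this program is known to act after the mesoderm stage that was sampled here.

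Positions of the genes are those of GENCODE release 29 on GRCh38. RUNX1 (chr21:34787801-36004667, minus strand) and ERG (chr21:38380027-38661780, minus) share chromosome 21. FLI1 (chr11:128686535-128813267, plus), LMO2 (chr11:33858576-33892289, minus) and SPI1 (chr11:47354860-47378576, minus) lie on chromosome 11, and LYL1 (chr19:13099033-13103161, minus) and ETV2 (chr19:35641745-35644871, plus) on chromosome 19. TAL1 (chr1:47216290-47232220, minus), GFI1B (chr9:132944000-132991687, plus) and MYB (chr6:135181315-135219173, plus) complete the set. Values were summed over all RefSeq transcripts of a gene, of which LYL1 has 1 and ERG and MYB have 8 each, so isoforms cannot be told apart.

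The bases before the start sites of RUNX1, ETV2 and LYL1 are shown because these factors had the lowest mean differences of the LGR4-/- clones from control on the log2 scale. The sequences are from RefSeq on GRCh38.p14, written 5′ to 3′ on the strand of the gene, and capitals mark matches to the motifs named after them. For RUNX1 and ETV2 the 250 bases upstream of the start are given, and neither window overlaps an annotated exon. The RUNX1 window is chr21:34888700-34888949 on the minus strand, inside the span of the longer RUNX1 transcripts, and the ETV2 window is chr19:35641495-35641744 on the plus strand. For LYL1 only 30 bases are given (chr19:13102868-13102897, minus strand), because its window, these bases included, lies within an annotated exon.
RUNX1: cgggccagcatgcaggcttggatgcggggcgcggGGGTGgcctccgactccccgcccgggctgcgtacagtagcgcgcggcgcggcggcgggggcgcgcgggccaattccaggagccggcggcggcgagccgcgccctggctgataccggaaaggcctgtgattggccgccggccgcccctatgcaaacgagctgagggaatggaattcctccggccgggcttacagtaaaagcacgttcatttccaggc
ETV2: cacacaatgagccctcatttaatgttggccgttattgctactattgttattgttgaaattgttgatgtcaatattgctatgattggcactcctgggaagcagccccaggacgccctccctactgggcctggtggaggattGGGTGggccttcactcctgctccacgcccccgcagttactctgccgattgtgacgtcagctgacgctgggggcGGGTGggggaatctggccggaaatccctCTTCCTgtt
LYL1: cagccaggctccTTATCAggcgcggccagg

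The motifs searched on both strands were the GATA factor sites AGATAA or, with another first base, TGATAA. The others were CAGATG as a type of E-box, TGTGGT for RUNX factors, AGGAAG for ETS factors and CACCC for KLF and SP factors, and no match overlapped another in the sequences shown. Windows were at hand for 7 of the 10 factors, 12 windows in all, and LMO2, FLI1 and SPI1 had none. The LYL1 window held TGATAA on the opposite strand 27 bases before the start, seen as TTATCA in the sequence above. Of all 35116 windows of the same length, 6.66% held TGATAA and 14.6% held either GATA factor site. The ETV2 window held AGGAAG on the opposite strand 9 bases before the start, a motif present in 28.7% of all windows, and CACCC at 110 and 37 bases. The RUNX1 window held CACCC alone, 216 bases before the start, and CACCC occurred in 54.7% of all windows. A second LYL1 match to CACCC lay 130 bases before its start. These matches are letters in a window and say nothing about binding.

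Expression was given as FPKM, fragments scaled by transcript length and by the mapped total of the library, to 2 decimals. The depth, estimated from the low FPKM values, lay between 8680000 and 8910000 reads per library. LGR4 itself was at 21.77 FPKM in control, 24.26 with R-spondin2, 7.40 in clone 1 and 13.95 in clone 2. The clones thus held 34.0% and 64.1% of the control level, and gene-level FPKM does not show whether the remaining RNA encodes receptor. Markers of pluripotent cells and of nascent mesoderm were present in every library, with 6 of 6 genes of each list at 1 FPKM or more. Of the endothelial markers, CDH5, PECAM1 and ESAM stayed below 1 FPKM in all 4 libraries, whereas TEK was at 4.88 to 9.0 FPKM, VWF at 1.09 to 2.02 FPKM and TIE1 at 0.78 to 1.58 FPKM.

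All 10 factors had FPKM values above 0 in all 4 libraries, at low levels. At least 1 FPKM was reached by 5 of 10 in control, 4 with R-spondin2, 1 in clone 1 and 3 in clone 2. Of all genes, between 70.0% and 71.1% reached it in each library. Their median was 0.815 FPKM in control, against 4.99 FPKM over all genes. RUNX1 was highest in both wild type libraries, followed by MYB and LYL1. MYB was highest in both clones. In every library the 95% counting interval of each factor overlapped that of the next in order, so the order of neighbours was not resolved at this depth. The intervals were derived from the reads that an FPKM value implies at the shortest transcript of the gene, and they cover counting error only.

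**Figure D1:**
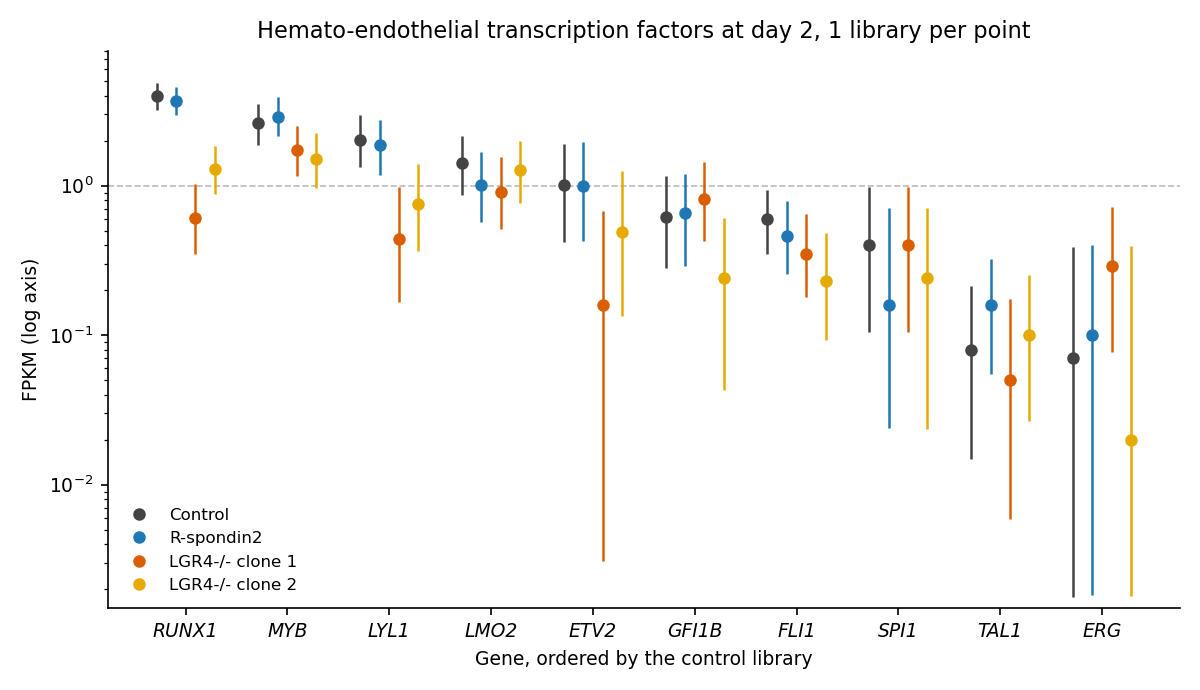
FPKM of the 10 factors (log axis) in the control, R-spondin2, LGR4-/- clone 1 and LGR4-/- clone 2 libraries, 1 point per library, with 95% counting intervals as vertical lines and the level of 1 FPKM dashed. RUNX1, LYL1 and ETV2 sit lower in both clones than in both wild type libraries, and the intervals widen from left to right as reads become few.

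The hemangiogenic initiator ETV2 was at 1.01 FPKM in control, 0.99 with R-spondin2, 0.16 in clone 1 and 0.49 in clone 2. These values rest on 8 implied reads or fewer in each library. Both clones lay below both wild type libraries.

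In the bHLH pair, LYL1 was the measurable partner. LYL1 was at 2.01 FPKM in control, 1.87 with R-spondin2, 0.44 in clone 1 and 0.76 in clone 2. TAL1, its close relative and the better known master regulator of blood formation, was at 0.08, 0.16, 0.05 and 0.10 FPKM in the same order, from 2 to 6 implied reads. The ratio of LYL1 to TAL1 was not computed, since TAL1 lay near the level of a few reads. LMO2, the bridging protein of the complex, was at 1.42, 1.01, 0.91 and 1.28 FPKM. Its clones overlapped the wild type libraries, with clone 2 between control and R-spondin2.

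Among the ETS factors beside ETV2, none reached 1 FPKM. FLI1 was at 0.60 FPKM in control, 0.46 with R-spondin2, 0.35 in clone 1 and 0.23 in clone 2, with both clones lowest. SPI1 was at 0.40, 0.16, 0.40 and 0.24 FPKM, and its clones overlapped the wild type libraries. ERG was at 0.07, 0.10, 0.29 and 0.02 FPKM, highest in clone 1 and lowest in clone 2. At the shortest transcript these values rest on 4 implied reads or fewer, and that of clone 2 lay below the level of 1 read (0.07 FPKM).

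RUNX1 had the widest range of the 10 factors in FPKM. It was at 3.96 FPKM in control, 3.71 with R-spondin2, 0.61 in clone 1 and 1.29 in clone 2. The wild type libraries lay close together and both clones far below them. GFI1B, a direct RUNX1 target in the endothelial-to-hematopoietic transition, was at 0.62, 0.66, 0.81 and 0.24 FPKM, so its clones fell on either side of the wild type libraries. MYB was at 2.62, 2.90, 1.74 and 1.51 FPKM, with both clones below both wild type libraries and a smaller gap than for RUNX1.

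The first comparison asked whether 1 day of R-spondin2 had changed these factors by day 2. Differences were taken on the log2(FPKM+1) scale, which compresses differences at low FPKM. They were compared with those of the 12697 genes whose average over the 4 libraries was 1 FPKM or more. LYL1, LMO2, RUNX1 and MYB passed this filter and the other 6 factors did not. The log2 difference was -0.07 for RUNX1, -0.07 for LYL1, -0.27 for LMO2 and 0.11 for MYB. None of the 4 reached 2-fold, which 0.221% of all genes compared reached in either direction. The median difference of the 4 was -0.07, against -0.0083 over all genes.

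For 0 of the 10 factors did the counting interval of the log2 ratio of R-spondin2 to control exclude 0. Over all genes with a transcript length, 15.3% of intervals did so, and 8.56% of genes whose mean FPKM lay within the range of the 10 factors. The interval ran from -0.52 to 0.34 for RUNX1, from -0.47 to 0.81 for MYB and from -0.99 to 0.72 for LYL1. Thus for RUNX1 a 2-fold difference in either direction between these libraries lay outside the counting interval. For TAL1, with 3 and 6 implied reads, the interval from -1.19 to 3.67 included both a fall and a rise of that size. The intervals of ERG, SPI1, ETV2 and GFI1B also included both, and those of FLI1 and LMO2 included such a fall. For comparison, APLNR, the apelin receptor and a marker of lateral plate mesoderm, was at 362.46 FPKM in control and 443.61 with R-spondin2.

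**Figure D2:**
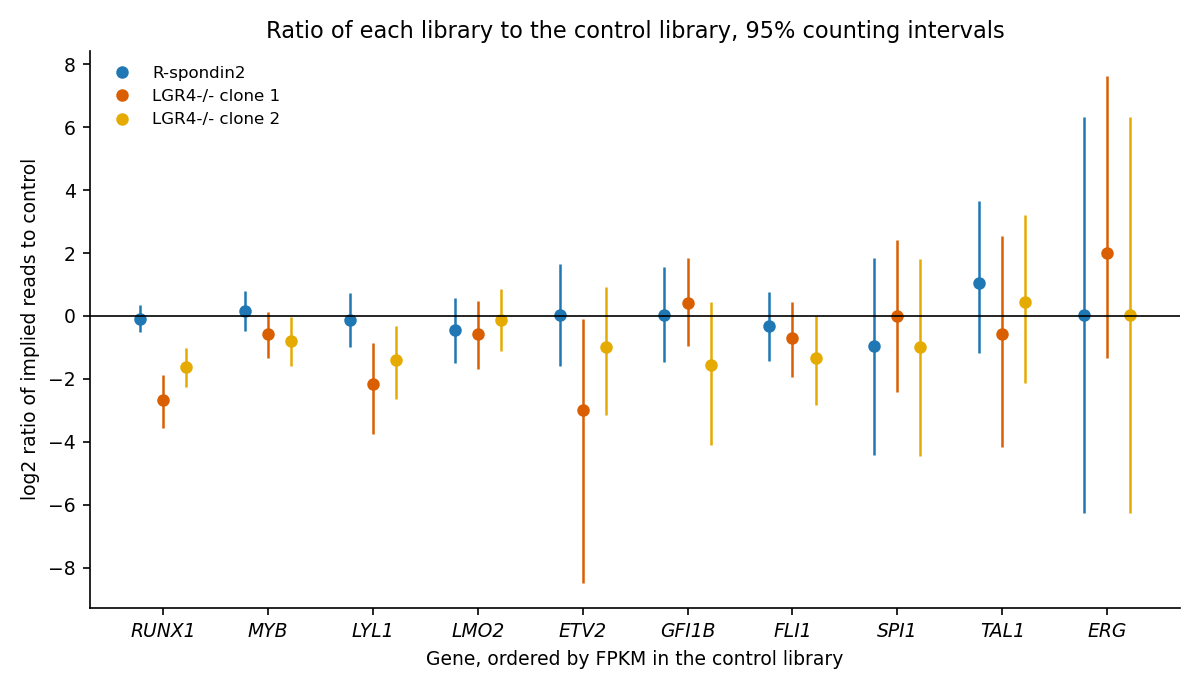
log2 ratio of implied reads (vertical axis) of the R-spondin2, LGR4-/- clone 1 and LGR4-/- clone 2 libraries to the control library for each factor, with 95% counting intervals as vertical lines. All 10 R-spondin2 intervals include 0, and RUNX1 and LYL1 have intervals below 0 in both clones at the shortest transcript used here.

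The second comparison set the LGR4-/- clones against control. RUNX1 and LYL1 had the largest differences among the 4 factors that passed the filter, and MYB and LMO2 were lower by smaller amounts. RUNX1 was lower by 2-fold or more in both clones, with log2 differences of -1.62 and -1.11, and it was the only 1 of the 4 to be so. Of all genes compared, 1.08% were at least 2-fold lower in both clones and 0.236% at least 2-fold higher. LYL1 differed by -1.06 in clone 1 and by -0.77 in clone 2. In clone 1 alone, 2 of the 4 were thus at least 2-fold lower, against 2.26% of all genes, and in clone 2 alone 1 of the 4, against 1.17%. MYB differed by -0.40 and -0.53, and LMO2 by -0.34 and -0.09.

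All 4 were lower than control in the mean of the clones, as were 46.4% of all genes compared, and their median difference was -0.69 against 0.02 over all genes. The filter averages all 4 libraries. LYL1, at 0.44 and 0.76 FPKM in the clones, and RUNX1, at 0.61 and 1.29 FPKM, passed it through their wild type values. The shares of factors lower or past 2-fold and their median thus depend in part on the filter. Without it, the median over all factors was -0.26. Ranked by that mean difference, 97 of the 12697 genes lay lower than RUNX1 (0.764%) and 248 lay lower than LYL1 (1.95%). For MYB 5.94% of genes lay lower, and for LMO2 15.4%. The 6 factors under the filter had mean differences between -0.61 for ETV2 and 0.10 for ERG.

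On the scale of implied reads, which has no pseudocount, the log2 ratio of RUNX1 to control was -2.68 in clone 1 (95% interval -3.57 to -1.88, 15 reads against 96) and -1.61 in clone 2 (-2.24 to -1.01, 31 reads). That of LYL1 was -2.17 (-3.73 to -0.86, 6 reads against 27) and -1.41 (-2.62 to -0.32, 10 reads). At the shortest transcript, RUNX1 and LYL1 were the only factors with intervals below 0 in both clones. ETV2 had a ratio of -3.00 in clone 1 (-8.47 to -0.10, 1 read against 8) and of -0.98 in clone 2, where the interval from -3.16 to 0.92 included 0. FLI1 and MYB had intervals below 0 in clone 2 (-2.84 to -0.01 and -1.57 to -0.03) and intervals that included 0 in clone 1.

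In all, 3 of 10 intervals lay below 0 in clone 1 and 4 of 10 in clone 2, and none above. Over all genes with a transcript length, 14.0% of intervals lay below 0 in clone 1 and 11.0% in clone 2. Among genes within the range of mean FPKM of the factors, these shares were 7.69% and 6.48%. With the longest transcript of each gene in place of the shortest, an alternative chosen after the data were seen, 4 intervals lay below 0 in clone 1, MYB being added and thus below 0 in both clones, and that of ERG lay above 0 (0.25 to 4.57, 13 reads against 3). Compared with both wild type libraries, both clones were lower for 5 of the 10 factors (ETV2, LYL1, FLI1, RUNX1 and MYB) and higher for 0. Of genes above 0 FPKM in any library, 24.2% lay lower in this sense and 30.8% higher.

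**Figure D3:**
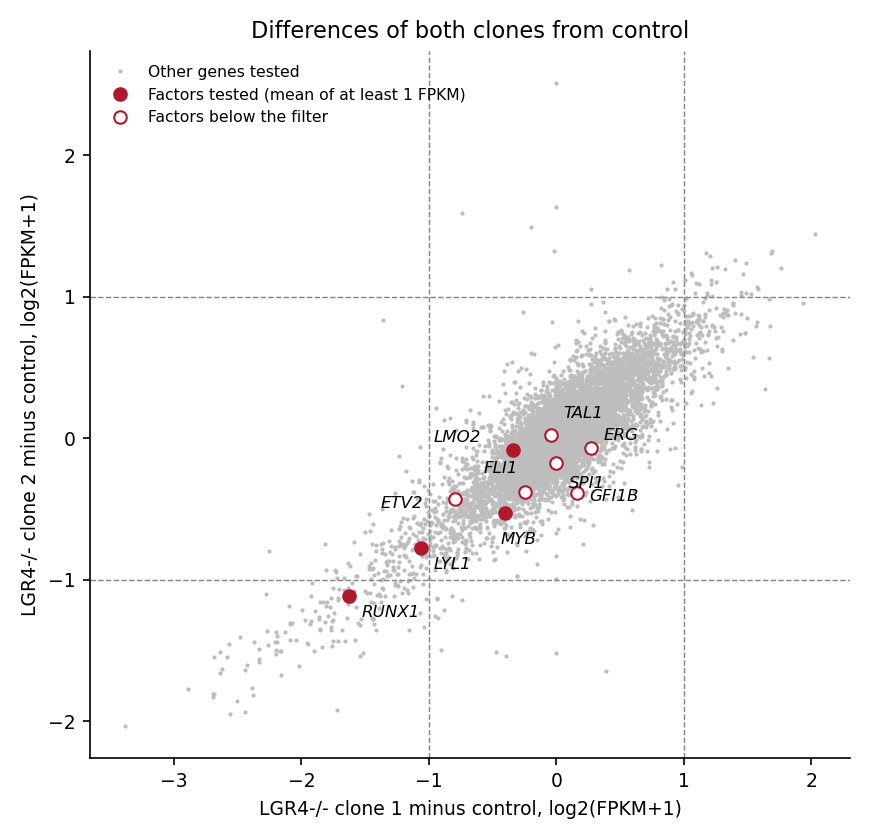
Difference from control in log2(FPKM+1) of clone 1 (horizontal axis) and clone 2 (vertical axis) for the genes compared (grey), the 4 factors that passed the filter (filled red) and the 6 that did not (open red), with 2-fold marked by dashed lines. RUNX1 lies beyond 2-fold in both clones at -1.62 and -1.11, and LYL1 beyond it in clone 1 alone; both axes share the control library, so the slope of the cloud is partly built in.

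The libraries of the clones also differed from wild type in markers of cell state. The 6 pluripotency markers, among them POU5F1 and NANOG, were higher in both clones than in both wild type libraries in 6 of 6, and their summed FPKM was 1322 in control, 1083 with R-spondin2, 2106 in clone 1 and 1968 in clone 2. The 6 markers of nascent mesoderm, among them MIXL1 and MESP1, were lower in 6 of 6, with sums of 3361, 4731, 942 and 1570. Of all genes compared, 34.4% lay above both wild type libraries in both clones and 27.6% below. Of the mesoderm markers, T, MIXL1, MESP1 and APLNR also belong to the list of mesoderm factors described below. In bulk samples, fewer cells of a type and less RNA per cell cannot be told apart. The part of this shift in the lower RUNX1 and LYL1 values was not tested. Summed endothelial markers were at 9.48, 8.57, 12.5 and 11.0 FPKM and summed blood cell markers at 10.9, 9.56, 12.6 and 11.9, so neither sum was lower in the clones. Stromal markers summed to between 216 and 297 FPKM.

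The third comparison set clone 2 against clone 1, to show how far libraries of the same labelled genotype differed. None of the 4 factors compared reached 2-fold, which 0.252% of all genes did. Clone 2 was nearer to control than clone 1 for RUNX1, LYL1 and LMO2, with log2 differences between the clones of 0.51, 0.29 and 0.26. MYB went the other way at -0.13. The mesoderm factors described below also lay higher in clone 2, 16 of 18 of them, with a median difference of 0.58. The median over all genes was -0.0027. By counting intervals, RUNX1 was higher in clone 2 than in clone 1 (log2 ratio 1.07, 0.13 to 2.06) and GFI1B was lower (-1.98, -4.45 to -0.09, 3 reads against 12). These 2 of 10 intervals compare with 16.2% of intervals over all genes and 9.17% within the range of mean FPKM of the factors. LGR4 RNA was also higher in clone 2.

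Genes that work with these factors were described by list. In the TAL1 complex, 14 of 17 partners passed the filter. Of these, 1 was at least 2-fold lower in both clones (GATA3), against 1.08% of all genes compared, and 0 were higher, against 0.236%. The E proteins TCF3 and TCF12, which pair with TAL1 and LYL1, were at 73.14 and 20.15 FPKM in control. In the clones TCF3 was at 89.21 and 81.65 FPKM and TCF12 at 22.46 and 23.48 FPKM. LDB1, which brings such complexes together, stayed between 52.27 and 57.48 FPKM. GATA1, GATA2 and GATA3, the GATA factors of this list, were far less abundant. GATA2, a factor of blood progenitors, was at 1.48 FPKM in control, 1.85 with R-spondin2, 0.03 in clone 1 and 0.90 in clone 2, and GATA3 was at 1.81, 1.90, 0.18 and 0.37 FPKM.

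GATA1, the erythroid factor, was at 0.46 FPKM or less throughout, and the corepressor CBFA2T3 at 0.41 FPKM or less. RUNX1T1, another member of the corepressor family of CBFA2T3, had the highest difference of the list with R-spondin2, from 3.08 to 3.73 FPKM. The median difference of the 14 partners was -0.14 in the clones and 0.05 with R-spondin2.

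In the ETS family, 17 of 23 other members passed the filter. In both clones 0 were 2-fold lower, against 1.08% of all genes compared, and 0 were 2-fold higher, against 0.236%. ETS1, a broadly expressed founding member, had the lowest mean difference, at 18.30 FPKM in control, 24.80 with R-spondin2, 10.22 in clone 1 and 12.28 in clone 2. ETS2 followed at 21.33, 22.88, 17.16 and 18.33 FPKM. SPIB, a lymphoid relative of SPI1, had the highest, at 3.0, 2.77, 4.94 and 5.44 FPKM, and ETV1 was next at 7.26, 5.36, 9.54 and 9.32 FPKM. With R-spondin2, ELK3 had the highest difference of the list, from 9.18 to 13.37 FPKM. The median difference of the list was -0.04 in the clones and 0.06 with R-spondin2.

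Of the relatives and cofactors of RUNX1, GFI1B and MYB, 7 of 10 passed the filter. Again 0 were past 2-fold in both clones, against 1.08% of all genes compared lower and 0.236% higher. CBFB, the subunit with which RUNX1 binds DNA, was at 22.31 FPKM in control, 22.90 with R-spondin2, 13.69 in clone 1 and 17.19 in clone 2. The clones were at 61.4% and 77.1% of control for CBFB, which had the lowest mean difference of this list. Of all genes compared, 27.6% lay below both wild type libraries in both clones. The histone demethylase KDM1A, a cofactor of GFI1B, was at 112.42, 116.34, 125.18 and 115.98 FPKM, and the coactivator CREBBP at 20.09, 20.66, 17.71 and 18.55 FPKM. The MYB relatives MYBL1, at 1.17 to 1.56 FPKM, and MYBL2, at 111.32 to 124.06 FPKM, had overlapping ranges in clones and wild type. The median difference of this list was -0.03 in the clones and 0.04 with R-spondin2.

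Endothelial genes, many of them known targets of ETS factors, were lower than control in the mean of the clones in 9 cases and higher in 7. Lower by this measure were 46.4% of all genes compared. Of 29 listed, 16 passed the filter, and NRP1 and NRP2, receptors for VEGF and semaphorins, were at least 2-fold lower in both clones. Such a difference in both clones was seen in 1.08% of all genes compared. NRP1 was at 15.11 FPKM in control, 20.06 with R-spondin2, 2.11 in clone 1 and 4.95 in clone 2, and NRP2 at 28.72, 38.17, 7.57 and 11.46 FPKM. The VEGF receptor FLT1 was at 12.48, 12.11, 18.41 and 19.01 FPKM and the angiopoietin receptor TEK at 5.73, 4.88, 9.0 and 7.98 FPKM, both with the clones highest. KDR, the VEGF receptor that marks hemangiogenic mesoderm, was at 34.40, 34.12, 26.80 and 32.87 FPKM. With R-spondin2 the receptor TIE1 had the lowest difference, from 1.3 to 0.78 FPKM, and the factor SOX18 the highest, from 0.98 to 1.68 FPKM. CD34, PECAM1 and CDH5, which define hemato-endothelial progenitors, were at 0.55 FPKM or less in every library. The median difference of the 16 was -0.02 in the clones and -0.00094 with R-spondin2.

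Of 25 blood cell genes, 12 passed the filter. GYPB alone was at least 2-fold lower in both clones, against 1.08% of all genes compared. GYPB was at 14.25 FPKM in control, 16.06 with R-spondin2, 1.36 in clone 1 and 3.30 in clone 2. GYPB and HBG2 each have a near-identical neighbour among the genes, so the division of reads between copies is uncertain. ITGA2B, the platelet integrin and an early marker of blood commitment, was at 0.87, 0.63, 1.74 and 1.63 FPKM. HBG2 was at 9.48, 10.47, 13.57 and 14.46 FPKM and the erythropoietin receptor EPOR at 6.71, 6.14, 6.11 and 5.42 FPKM. With R-spondin2 NFE2, a megakaryocyte and erythroid factor, had the lowest difference of the list, from 3.57 to 1.83 FPKM, and CEBPA, a myeloid factor, the highest, from 0.98 to 1.75 FPKM. The median difference of the 12 was 0.18 in the clones and -0.06 with R-spondin2.

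The mesoderm factors that act before the hemangiogenic program had 16 genes lower and 2 higher than control in the mean of the clones. Lower by this measure were 46.4% of all genes compared. Of 22 listed, 18 passed the filter. At least 2-fold lower in both clones were 9, against 1.08% of all genes compared, and 0 were higher, against 0.236%. The 9 were MESP1, HAND1, GATA4, GATA6, FOXF1, FOXC1, BMP4, APLNR and MEIS2. HAND1, a factor of lateral and extraembryonic mesoderm, was at 70.05 FPKM in control, 99.85 with R-spondin2, 8.59 in clone 1 and 19.76 in clone 2. BMP4, the ligand that patterns ventral mesoderm, was at 67.39, 98.26, 9.65 and 22.47 FPKM. PBX3, a partner of HOX and MEIS proteins, was at 13.68, 15.58, 15.48 and 14.08 FPKM. FOXF1 had the highest difference with R-spondin2, from 3.96 to 6.66 FPKM. No gene of any of the 6 lists reached 2-fold with R-spondin2, which 0.221% of all genes compared reached.

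**Figure D4:**
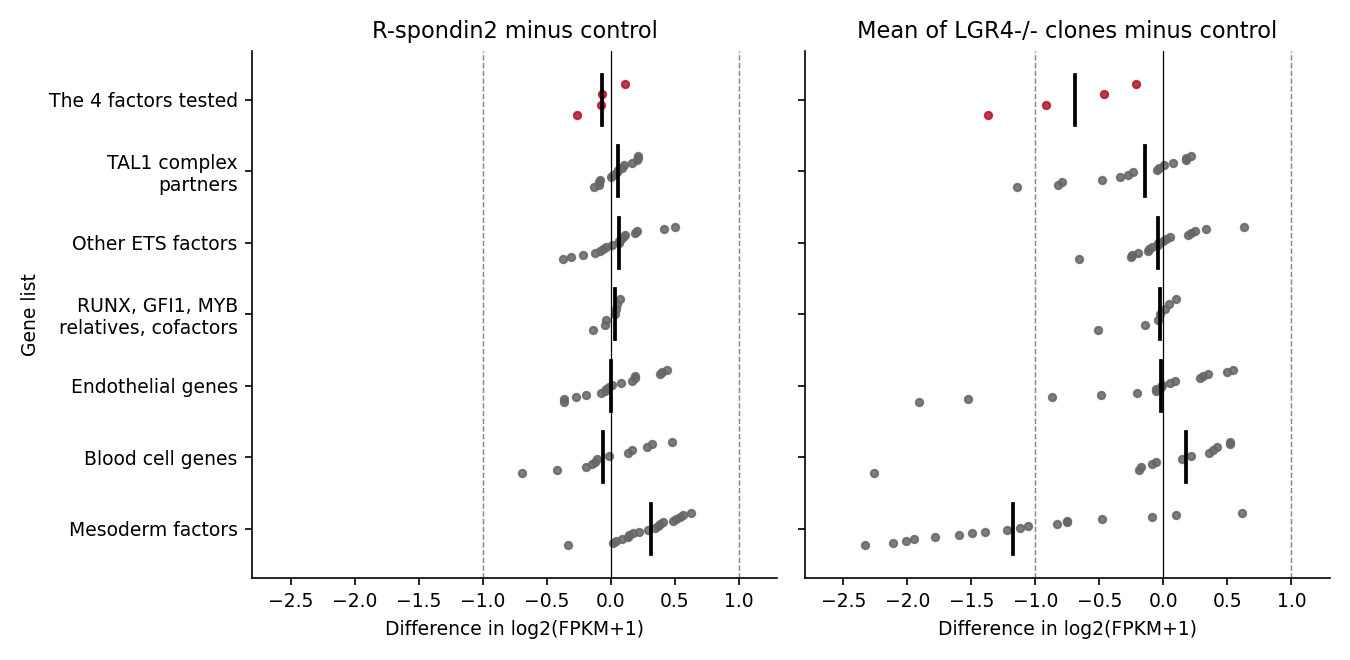
Difference from control in log2(FPKM+1) for R-spondin2 (left) and for the mean of the LGR4-/- clones (right) of each gene past the filter in the 4 factors and the 6 lists, 1 point per gene, with list medians as vertical bars and 2-fold dashed. The medians of the clones are -1.17 for the mesoderm factors and -0.69 for the 4 factors, and those of the other lists lie between -0.14 and 0.18. Without the filter they are -0.94 for the mesoderm factors and -0.26 over all hemato-endothelial factors.

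The median of the 18 mesoderm factors was -1.17 in the clones and 0.32 with R-spondin2, so both lie on opposite sides of 0, and both share the control library. In the 4 hemato-endothelial factors past the filter the median was -0.69 and -0.07. Without the filter these medians were -0.94 and 0.30 for the mesoderm factors and -0.26 and -0.04 over all hemato-endothelial factors. The clones were below both wild type libraries for 15 of the 18 mesoderm factors and above for 1. For the other lists these counts were 8 and 4 of 14 TAL1 partners, 7 and 5 of 17 ETS factors, 2 and 1 of 7 relatives and cofactors, 6 and 5 of 16 endothelial genes and 3 and 4 of 12 blood cell genes. Of all genes compared, 27.6% lay below and 34.4% above.

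Genes with the most similar pattern were sought for the 4 factors past the filter, by the distance in the 3 log2 differences from control over the 4 libraries, with 0 for identical differences. For RUNX1 the nearest were FSHR (distance 0.17), NRGN (0.22) and TDRD7 (0.22), and FSHR was at 4.39, 3.91, 0.64 and 1.72 FPKM. LYL1 was nearest to SOCS3 (0.11), RPH3A (0.13) and NOTUM (0.14), and SOCS3, a feedback inhibitor of cytokine signaling, was at 33.45, 31.72, 14.34 and 19.83 FPKM. LMO2 was nearest to CD47, RNF222 and RAP2C (0.03 to 0.07), and MYB to IFI27L2, CTDSP1 and DDHD2 (0.03 to 0.05). Small differences have many near neighbours, and these distances are given as a description.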

How the data were processed

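Gene expression was measured by RNA-SEQ (TRIzol RNA, Illumina TruSeq libraries) in 4 libraries. The authors deposited FPKM for 17894 genes with NCBI gene identifiers and RefSeq transcripts. The submitters' processing notes name BWA, Bowtie, RSEM and hg19, with no roles or versions given in the sources used here. FPKM already include scaling for transcript length and depth, so no count model was used. FPKM were compared as log2(FPKM+1), a pseudocount of 1, for 12697 genes that averaged 1 FPKM or more, and a log2 difference of 1 was counted as 2-fold. As depth was taken that number of reads, in steps of 10000, at which FPKM below 0.6 of transcripts under 1500 bases lay closest to whole reads, with GENCODE release 29 lengths for 8068 genes with 1 transcript. At the estimates, 76.3% to 77.7% of these values lay within 0.2 of a whole read. Implied reads gave exact Poisson intervals for levels and Clopper-Pearson intervals (95%) for ratios. Reads were taken at the shortest transcript, which gives the fewest, and any value above 0 as at least 1 read. These intervals assume that the lengths equal those of the authors, and cover counting error only. Coordinates and sequences are on GRCh38, not on the authors' build. Genes named were all factors, LGR4, 12 fixed partners and markers, the 2 highest and 2 lowest of each list in the clones, the highest and lowest with R-spondin2, and the 3 nearest to each factor by Euclidean distance. Members and lists were chosen with earlier results of these data known. The scripts were tested on simulated data. Alternatives were a pseudocount of 0.1, no filter, a filter of at least 5 FPKM, rescaling by median ratios, a threshold of 1.5-fold, each clone left out and both wild type libraries as comparator. GO hemopoiesis terms and longest transcripts were added after the data were seen. A comparison of protein sequences was not run. Some genes that the naming rule and the marker lists hold are not reported here. Computations used Python 3.11.15, numpy 2.4.6, scipy 1.17.1, pandas 2.3.3 and matplotlib 3.10.9.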

Additional observations from a re-analysis of the deposited data

How the results depend on the processing

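No paired analysis was possible because the control and R-spondin2 conditions have 1 library each and the numbers of the LGR4-/- samples match no wild type sample. RUNX1 was the only factor at least 2-fold lower in both clones on the main scale, and 2 factors, LYL1 and RUNX1, were so with a pseudocount of 0.1, where 1.81% of all genes were, and with a threshold of 1.5-fold, where 3.09% were. Leaving out 1 clone gave 1 to 2 factors, 2 with clone 1 alone and 1 with clone 2 alone. With a pseudocount of 0.1 the mean difference of the clones was -2.03 for RUNX1, -1.63 for LYL1 and -0.66 for MYB. Of the 6 lists, 0 genes were past 2-fold with R-spondin2, against 0.221% of all genes, and 2 were past 1.5-fold, against 2.0%. The lists held 13 genes lower by 2-fold in both clones, where 1.08% of all genes were. These were 9 of 18 mesoderm factors, 2 of 16 endothelial genes, 1 of 14 TAL1 partners and 1 of 12 blood cell genes. In the other lists 0 of 17 ETS factors and 0 of 7 relatives and cofactors were so. With 1 clone left out the lists held 13 to 18, against 1.17% and 2.26% of all genes. The GO hemopoiesis terms held 5 of 133. Without the filter the median of the clones over all 10 factors was -0.26, in place of -0.69 over the 4 that passed it. The median of clone 2 against clone 1 was then -0.03 in place of 0.27. A filter of at least 5 FPKM left none of the factors and gave no value. With the longest transcripts the number of intervals that excluded 0 was 5 in place of 3 in clone 1 and stayed at 4 in clone 2. The median of the clones over the blood cell genes was -0.09 without the filter in place of 0.18. TAL1, ERG and SPI1 rest on few reads, and at their shortest transcripts differences of 2-fold were not detectable at this depth. For ETV2 and GFI1B the R-spondin2 intervals also included 2-fold in both directions (-1.57 to 1.65 and -1.47 to 1.55). Those of FLI1 (-1.44 to 0.76) and LMO2 (-1.51 to 0.58) included a 2-fold fall.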
